A study of Mus musculus with 3 samples.

Results

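Genes of fatty acid uptake and oxidation were followed across 3 spatial transcriptome sections of mouse heart. They are 33 listed symbols, chosen by name for their role in the pathway, with earlier results of these data known. Each was kept if it had 20 or more unique molecular identifiers (UMIs, each standing for 1 captured transcript) over the sections. All 33 of the 33 symbols passed, out of 32285 genes listed and 13883 genes that reached 20 UMIs. The lowest was Slc22a5 with 545 UMIs, so no gene lay near the limit. The libraries are Visium libraries, in which a cryosection of 10 µm lies on a slide of barcoded spots and each spot captures RNA from the tissue lying on it, which can be several cells of different types. Only 1 section was measured for each condition, all from C57BL/6 mice supplied at 8 weeks of age. The sham mouse received vehicle by gavage for 7 days and then an operation in which needles were placed but no vessel was tied. The I/R mouse received the same vehicle for 7 days, then ischemia by ligation of the left anterior descending coronary artery for 30 min, and then 24 h of reperfusion. The SBP mouse received MUSKARDIA (Shexiang Baoxin Pill, SBP, a compound of traditional Chinese medicine) by gavage for 7 days before the same ischemia of 30 min and reperfusion of 24 h. Since no condition was replicated, differences are given without a p-value, and a difference between conditions cannot be told apart from a difference between single mice or planes of section.

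The adult heart draws most of its ATP from long-chain fatty acids. Lipoprotein lipase frees them from triglyceride at the vessel wall, CD36 and fatty acid transport proteins take them up, and the heart-type fatty acid binding protein carries them through the cytosol. Acyl-CoA synthetase activates them, the carnitine shuttle moves the acyl groups into the mitochondrion, and beta-oxidation shortens them step by step while electron transfer flavoprotein passes the electrons to ubiquinone. Malonyl-CoA restrains the shuttle at carnitine palmitoyltransferase 1, and the coactivator PGC-1 alpha with the nuclear receptors ERR alpha and PPAR alpha is known to drive transcription of much of the pathway. In injured heart muscle these genes are known to be expressed at lower levels than in healthy muscle.

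Values are counts of UMIs per 1000000 UMIs of a section (CPM), and ratios are log2 ratios of CPM, with exact 95% intervals that cover counting error only, not the spread between mice. Each section held 21631280 to 30238530 UMIs in 1960 to 2234 spots, with a median of 10645 to 14672 UMIs per spot. Between pairs of sections 1205 to 1565 spot barcodes recurred, which are codes of slide positions. Genes of the mitochondrial genome took 48.6%, 44.3% and 46.3% of UMIs across sham, I/R and SBP, so ratios are also given with these 13 genes left out of the denominator. The median gene with 20 or more UMIs had a log2 ratio of 0.24 for I/R against sham and of -0.17 for SBP against I/R. To check the label of heart tissue, 14 cardiomyocyte markers were read, which summed to 67148, 50880.0 and 62253 CPM across sham, I/R and SBP. Neutrophil markers (4 genes) summed to 27.2, 236 and 115 CPM across sham, I/R and SBP, and macrophage and monocyte markers (8 genes) to 331, 488 and 335 CPM across sham, I/R and SBP. In a spot, fewer cardiomyocytes and less RNA of a gene per cardiomyocyte cannot be told apart.

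As a sum, the fatty acid genes were lowest in the I/R section. They took 1.49%, 1.13% and 1.37% of all UMIs across sham, I/R and SBP, which places SBP between the others and nearer to sham. The log2 ratio of the sum was -0.41 (-0.41 to -0.40) for I/R against sham, 0.29 (0.28 to 0.30) for SBP against I/R and -0.12 (-0.12 to -0.11) for SBP against sham. Without the mitochondrial genes in the denominator these were -0.52, 0.34 and -0.18. Fabp3 held the largest part of the sum, and without it the ratios were -0.35, 0.29 and -0.054. The cardiomyocyte markers went the same way by nearly the same amount, with log2 ratios of -0.40, 0.29 and -0.11. Per cardiomyocyte marker UMI the sum of the fatty acid genes had log2 ratios of -0.0051 (-0.012 to 0.0016) for I/R against sham, -0.0024 (-0.0095 to 0.0047) for SBP against I/R and -0.0075 (-0.014 to -0.00054) for SBP against sham, so the gap between whole sections was no larger than that of the markers. The sums of the roles were not alike on that scale, though the genes within a role differed too. For I/R against sham, uptake was at -0.12 (-0.13 to -0.11) and the carnitine shuttle at -0.069 (-0.095 to -0.044). Beta-oxidation enzymes were at 0.15 (0.14 to 0.17), unsaturated fatty acid enzymes at 0.19 (0.15 to 0.22) and electron transfer at 0.13 (0.11 to 0.15), and the other roles lay between -0.021 and 0.0061. The uptake sum is mostly Fabp3 (-0.17) and Lpl (-0.11), while Cd36 was at 0.042, Slc27a1 at 0.53 and Slc22a5 at 0.052 (-0.23 to 0.33). In the shuttle, Crat (-0.20), Slc25a20 (-0.16), Acsl1 (-0.073) and Cpt1b (-0.021) were below 0, and Cpt1a (0.55) and Cpt2 (0.13) above.

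Taken gene by gene, 31 of the 33 genes had a log2 ratio of I/R against sham below 0 on the CPM scale, while 22 of the 33 were above 0 per cardiomyocyte marker UMI. The interval lay below 0 for 28 genes, above 0 for 1 and held 0 for 4. No share of all genes is given beside the counts by sign or interval, here or for SBP against I/R. The median gene, given above, lay above 0 for I/R against sham and below 0 for SBP against I/R. The median over the 33 genes was -0.33, or -0.58 relative to the median gene. A log2 ratio at or below -0.5 was reached by 5 of the 33 genes, Bdh1, Crat, Fabp3, Slc25a20 and Lpl, against 6.68% of all genes with 20 or more UMIs and 3.44% of the 5204 genes with 1000 or more, which 32 of the 33 genes also are. None of the 33 reached 0.5, which 29.9% of all genes did. That count of 5 moved with the scaling, to 12 without mitochondrial genes, to 18 with TMM factors, to 20 with median-of-ratios size factors and to 1 per cardiomyocyte marker UMI. The TMM and median-of-ratios factors lowered each I/R against sham ratio by 0.22 and 0.24 on the log2 scale, which put all 33 genes below 0. Each of these scalings shifts every gene alike, so the shares of all genes, given here on the CPM scale only, would move too. For SBP against I/R, 30 of the 33 genes were above 0 on the CPM scale and 11 per cardiomyocyte marker UMI, with a CPM median of 0.20, and the interval lay above 0 for 27, below 0 for 3 and held 0 for 3. None of the 33 reached 0.5, against 4.68% of all genes and 1.65% of those with 1000 or more UMIs, while TMM and median-of-ratios scaling each put 7 of the 33 past it. For SBP against sham, Slc22a5 and Bdh1 were at or below -0.5 (2 of 33, against 7.29% of all genes) and Slc27a1 was above 0.5 (1 of 33, against 11.2%). In 23 genes the I/R section was below sham and the SBP section above I/R in CPM with both intervals apart from 0. SBP was still below sham in 18 of these, above it in 1, and held 0 in 4. Both ratios rest on the same I/R section, and no share of all genes is given beside the count. The summed cardiomyocyte markers went the same way, at -0.40 and 0.29. Per cardiomyocyte marker UMI, only Lpl, Crat and Acaa2 had both intervals apart from 0 in these directions.

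**Figure D1:**
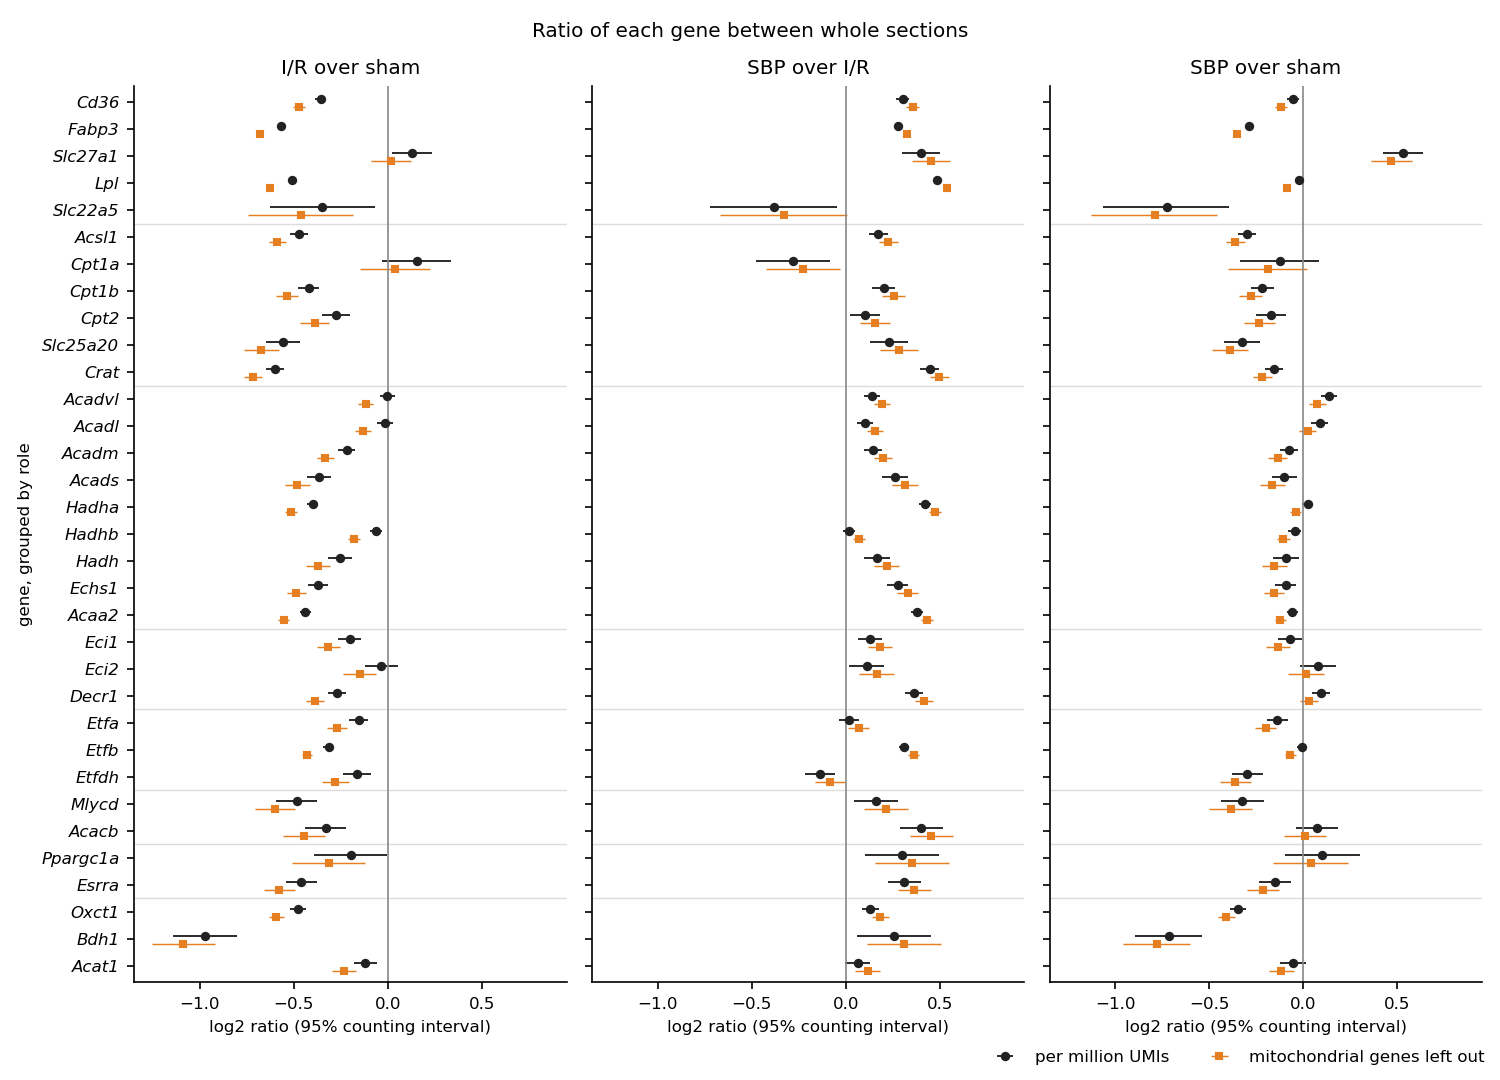
Log2 ratio of each of the 33 genes between whole sections (points, with 95% counting intervals as bars), grouped by role with grey lines between roles; circles are ratios of CPM and squares leave out mitochondrial genes. Most genes lie left of 0 for I/R against sham, with Bdh1 lowest at -0.97 (per cardiomyocyte marker UMI, which is not drawn, 22 of 33 lie right of 0), and right of 0 for SBP against I/R, with Lpl highest at 0.49.

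The 5 uptake genes summed to 7532, 5247 and 6718 CPM across sham, I/R and SBP, and had the lowest ratio of any role between I/R and sham, -0.52 (-0.53 to -0.51). Fabp3, the cytosolic fatty acid carrier of heart muscle (ENSMUSG00000028773, chromosome 4, 130308595 to 130315463, plus strand, GENCODE on GRCm38 as for the positions that follow), was at 4179 (4154 to 4205) CPM in the sham heart, 2820.2 (2801 to 2839) after I/R and 3415 (3390.4 to 3439.7) with SBP. The I/R section was lowest and SBP lay between, with log2 ratios of -0.57 (-0.58 to -0.55) for I/R against sham and 0.28 (0.26 to 0.29) for SBP against I/R. Lpl, the lipase that releases fatty acids from circulating lipoproteins (ENSMUSG00000015568, chromosome 8, 68880491 to 68907448, plus strand), was at 2628 (2608 to 2648) CPM in the sham heart, 1846 (1831 to 1861) after I/R and 2585 (2563 to 2606) with SBP. Here the SBP section stood close to sham, and Lpl had the highest SBP against I/R ratio of the 33 genes, 0.49 (0.47 to 0.50), after a ratio of -0.51 (-0.53 to -0.49) for I/R against sham. Cd36, the membrane fatty acid translocase, was at 665, 519 and 640.0 CPM across sham, I/R and SBP, again lowest in I/R and near sham in SBP, with ratios of -0.36 and 0.30. Slc27a1, which encodes fatty acid transport protein 1, was at 50.3 (47.5 to 53.1) CPM in the sham heart, 55.0 (52.4 to 57.7) after I/R and 72.6 (69.1 to 76.3) with SBP. It followed another order, lowest in sham and highest in SBP (with TMM factors I/R was the lowest), with log2 ratios of 0.13 (0.023 to 0.24) for I/R against sham, 0.40 (0.30 to 0.50) for SBP against I/R and 0.53 (0.42 to 0.64) for SBP against sham. Slc22a5, the plasma membrane carnitine transporter, was low throughout, at 8.80 (7.68 to 10.0) CPM in the sham heart, 6.91 (6.01 to 7.91) after I/R and 5.32 (4.39 to 6.38) with SBP. It was lowest in SBP rather than in I/R, and its ratio SBP against I/R of -0.38 (-0.72 to -0.043) was the lowest of the 33 genes, on 115 UMIs in SBP.

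Adipocyte markers, which would come with fat tissue that also transcribes Lpl and Cd36, were at 0 UMIs for Adipoq and Cfd in sham and I/R and at 8 and 98 UMIs in SBP. They lay in 24 spots of SBP, and without those spots no ratio of SBP to the other sections left its interval.

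The 6 genes of activation and the carnitine shuttle summed to 1060.5, 766 and 907 CPM across sham, I/R and SBP. Acsl1, the main long-chain acyl-CoA synthetase of heart (ENSMUSG00000018796, chromosome 8, 46471037 to 46536051, plus strand), was at 324 (317 to 331) CPM in the sham heart, 233 (228 to 239) after I/R and 263 (256 to 270.1) with SBP, highest in sham and with SBP only slightly above I/R. Its log2 ratios were -0.47 (-0.52 to -0.43) for I/R against sham and 0.17 (0.12 to 0.22) for SBP against I/R. The shuttle begins with carnitine palmitoyltransferase 1, which has a muscle form and a liver form. The muscle form Cpt1b (ENSMUSG00000078937, chromosome 15, 89416405 to 89425863, minus strand) was at 212 (206 to 217) CPM in the sham heart, 158 (154 to 163) after I/R and 182 (176 to 188) with SBP, and its ratio I/R against sham was -0.42 (-0.48 to -0.36). The liver form Cpt1a (ENSMUSG00000024900, chromosome 19, 3322334 to 3385733, plus strand) was at 17.0 (15.4 to 18.6) CPM in the sham heart, 18.9 (17.3 to 20.5) after I/R and 15.5 (13.9 to 17.3) with SBP, and it had the highest ratio I/R against sham of the 33 genes, 0.15 (-0.031 to 0.34), with an interval that holds 0 and a direction that TMM factors turn. Its SBP against I/R ratio was -0.28 (-0.48 to -0.082). There were 12.5 Cpt1b UMIs per Cpt1a UMI in sham (11.3 to 13.8), 8.39 after I/R (7.69 to 9.16) and 11.7 with SBP (10.5 to 13.1). The I/R section thus had fewer copies of the muscle form for each copy of the liver form. Slc25a20, the carnitine-acylcarnitine translocase of the inner membrane, was at 84.2 (80.6 to 87.8) CPM in the sham heart, 57.1 (54.5 to 59.9) after I/R and 67.1 (63.7 to 70.6) with SBP, with a ratio of -0.56 (-0.65 to -0.47) for I/R against sham. Crat, carnitine acetyltransferase, which buffers acetyl groups (ENSMUSG00000026853, chromosome 2, 30400471 to 30415813, minus strand), was at 309 (302 to 316) CPM in the sham heart, 204 (198 to 209) after I/R and 277 (270.4 to 284) with SBP. It was lowest in I/R, and SBP was nearer to sham than to I/R, with ratios of -0.60 (-0.65 to -0.55) and 0.45 (0.39 to 0.50). Cpt2, which hands the acyl group back to CoA inside the mitochondrion, differed less, at 115, 94.8 and 102 CPM across sham, I/R and SBP and with ratios of -0.27 and 0.10.

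The 9 enzymes of the beta-oxidation spiral summed to 3707, 3122 and 3672 CPM across sham, I/R and SBP, so that SBP lay near sham, at a log2 ratio of -0.014 (-0.027 to -0.00012), and I/R lower, at -0.25 over sham, a direction that is turned per cardiomyocyte marker UMI. The acyl-CoA dehydrogenases, which open each round and differ in the chain length they take, had unlike ratios. Acadvl, for very long chains, was at 356 (349 to 364) CPM in the sham heart, 356 (349 to 362) after I/R and 391.98 (384 to 400.4) with SBP, and Acadl, for long chains, was at 329.9 (323 to 337) CPM in the sham heart, 326 (319.8 to 333) after I/R and 350.3 (342 to 358) with SBP. In both, I/R and sham overlapped within counting error, with I/R against sham ratios of -0.0027 (-0.043 to 0.038) and -0.016 (-0.058 to 0.026), and SBP was slightly higher, with SBP against sham ratios of 0.14 (0.095 to 0.18) and 0.087 (0.041 to 0.13). Acadm, for medium chains, was at 305 (298 to 311) CPM in the sham heart, 262 (256 to 268) after I/R and 289 (282 to 296) with SBP and Acads, for short chains, at 163, 126 and 152 CPM across sham, I/R and SBP. Both were lower in I/R, where the ratios to sham were -0.22 (-0.26 to -0.17) and -0.37 (-0.43 to -0.30), below those of Acadvl and Acadl, which overlap. Per cardiomyocyte marker UMI none was below 0, at 0.40, 0.38, 0.18 and 0.034 (-0.030 to 0.098) for Acadvl, Acadl, Acadm and Acads. Among the later steps, Echs1 (enoyl-CoA hydratase) was at 238, 184 and 223 CPM across sham, I/R and SBP, Hadh (the short-chain hydroxyacyl-CoA dehydrogenase) at 154, 129 and 144 CPM across sham, I/R and SBP and Acaa2 (the thiolase that closes the round) at 823 (812 to 834) CPM in the sham heart, 607 (598 to 615) after I/R and 789 (777 to 801) with SBP. Their I/R against sham ratios were -0.37, -0.26 and -0.44.

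Hadha and Hadhb encode the alpha and beta subunits of the mitochondrial trifunctional protein, which carries out the last steps for long chains. The genes lie head to head on chromosome 5, Hadha on the minus strand from 30118304 to 30155162 and Hadhb on the plus strand from 30155248 to 30184593. By GENCODE their start sites are 86 bases apart. RefSeq promoter windows, at 30154931 to 30155230 for Hadha and 30155003 to 30155302 for Hadhb, are set from other start sites. The 85 bases between the GENCODE starts are at chr5:30155163-30155247 (GRCm38.p6, plus strand). They are shown because in GENCODE 1 stretch of DNA stands before both genes, while their transcript levels differed between sections.
Hadha to Hadhb: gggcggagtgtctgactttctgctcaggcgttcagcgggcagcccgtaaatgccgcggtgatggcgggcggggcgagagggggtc
Of these bases 69.4% are G or C, with 9 CpG dinucleotides. Hadha was at 747 (737 to 758) CPM in the sham heart, 566 (558 to 575) after I/R and 759 (747 to 771) with SBP, lowest in I/R, with log2 ratios of -0.40 (-0.43 to -0.37) for I/R against sham and 0.42 (0.39 to 0.45) for SBP against I/R. Hadhb was at 591 (582 to 601) CPM in the sham heart, 566 (557 to 574) after I/R and 573 (563 to 583) with SBP, nearly level over the sections, with ratios of -0.064 (-0.10 to -0.032) and 0.019 (-0.015 to 0.052). There were 1.26 Hadha UMIs per Hadhb UMI in sham (1.24 to 1.29), 1.0 after I/R (0.98 to 1.02) and 1.32 with SBP (1.29 to 1.36). This quotient does not depend on the denominator, and I/R was below sham and SBP beyond the counting intervals. Within sham it was 0.748 (0.685 to 0.815) in spots high in Ankrd1, a gene described below, and 1.31 (1.28 to 1.34) in the other spots. It was lower in Ankrd1-high spots of I/R as well, 0.829 beside 1.05, and of SBP, 1.10 beside 1.37.

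Enzymes that prepare unsaturated fatty acids for the spiral differed little for Eci2, an enoyl-CoA isomerase at 75.4 (72.0 to 78.8) CPM in the sham heart, 73.5 (70.5 to 76.7) after I/R and 79.5 (75.8 to 83.3) with SBP, whose ratio I/R against sham was -0.035 (-0.12 to 0.054). Eci1, the other isomerase, was at 172, 149 and 164 CPM across sham, I/R and SBP, and Decr1, dienoyl-CoA reductase, at 284, 235 and 303 CPM across sham, I/R and SBP. Decr1 was lowest in I/R and slightly above sham in SBP, with ratios of -0.27 for I/R against sham and 0.092 for SBP against sham.

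Electron transfer flavoprotein takes the electrons of the dehydrogenases. Its subunit genes were at 894 (883 to 906) CPM in the sham heart, 718 (709 to 728) after I/R and 890.3 (878 to 903) with SBP for Etfb and at 237 (231 to 243) CPM in the sham heart, 212 (207 to 218) after I/R and 215 (209 to 221) with SBP for Etfa, both higher in sham than in I/R. In SBP they separated, since Etfb was at the sham level with a SBP against I/R ratio of 0.31 (0.28 to 0.34), while Etfa had a ratio of 0.017 (-0.038 to 0.072). Etfdh, the dehydrogenase that passes the electrons to ubiquinone, was at 118 (114 to 122) CPM in the sham heart, 105 (102 to 109) after I/R and 96.0 (91.9 to 100.2) with SBP and was lowest in SBP, with a SBP against I/R ratio of -0.13 (-0.22 to -0.054).

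Malonyl-CoA is made by acetyl-CoA carboxylase 2 (Acacb) and removed by malonyl-CoA decarboxylase (Mlycd). Acacb was at 54.7 (51.9 to 57.7) CPM in the sham heart, 43.5 (41.2 to 45.9) after I/R and 57.5 (54.4 to 60.8) with SBP and Mlycd at 60.7, 43.3 and 48.4 CPM across sham, I/R and SBP. Both were lowest in I/R, and in SBP Acacb was at the sham level, with a SBP against I/R ratio of 0.40 (0.29 to 0.52) and a SBP against sham ratio of 0.071 (-0.041 to 0.18). Mlycd was below sham in SBP too, at -0.32 (-0.44 to -0.21).

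Of the regulators, Esrra, which encodes ERR alpha, was at 102 (98.4 to 106) CPM in the sham heart, 74.3 (71.2 to 77.4) after I/R and 92.2 (88.2 to 96.4) with SBP. Its intervals did not overlap between I/R and the other sections, and the log2 ratios were -0.46 (-0.54 to -0.38) for I/R against sham and 0.31 (0.22 to 0.40) for SBP against I/R. Ppargc1a, which encodes PGC-1 alpha, was at 17.2 (15.6 to 18.9) CPM in the sham heart, 14.9 (13.6 to 16.4) after I/R and 18.4 (16.6 to 20.3) with SBP, on 398 to 452 UMIs a section, with ratios of -0.20 (-0.39 to -0.0053) and 0.30 (0.10 to 0.50). Ppara, the partner receptor, is not among the 33 genes and was at 0.836, 0.728 and 1.06 CPM across sham, I/R and SBP, on 21 to 23 UMIs a section, too few to compare. RefSeq promoters of 300 bases (250 before and 50 after the start, GRCm38.p6) were at hand for 27 of the 33 genes, 31 promoters in all, and were searched on both strands for the letters AAGGTCA, to which ERR alpha is known to bind. They stood in 2 of the 31 promoters, 6.45%, against 4.72% of the 32851 promoters of all genes, so the share was near the background. Those of Acadm and Acacb held them, Acadm 249 bases before the start. Its stretch at chr3:153944794-153944893 (minus strand) is shown with the letters, read on the opposite strand, in capitals.
Acadm: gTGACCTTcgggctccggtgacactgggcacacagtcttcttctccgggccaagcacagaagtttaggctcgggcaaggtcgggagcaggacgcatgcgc
A direct repeat of AGGTCA with 1 base between the copies and at most 1 mismatch, the form that PPAR alpha is known to bind, was in 0 of the 31 and in 0.554% of all promoters.

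The 3 genes of ketone body use, another fuel that enters as acetyl-CoA, included the ratio furthest from 0 among the 33. Bdh1, beta-hydroxybutyrate dehydrogenase (ENSMUSG00000046598, chromosome 16, 31422280 to 31458901, plus strand), was at 30.4 (28.3 to 32.6) CPM in the sham heart, 15.5 (14.1 to 16.9) after I/R and 18.5 (16.7 to 20.4) with SBP. Sham stood apart from both operated sections with ischemia, by -0.97 (-1.14 to -0.80) for I/R against sham and -0.72 (-0.89 to -0.54) for SBP against sham. Oxct1, which transfers CoA to acetoacetate, had the same order at 404, 290.4 and 318 CPM across sham, I/R and SBP, with ratios of -0.48 and -0.35. Acat1, the acetoacetyl-CoA thiolase, was nearly level at 157, 145 and 151 CPM across sham, I/R and SBP. As a sum the ketone genes had a SBP against I/R ratio of 0.11 (0.078 to 0.15), where the other roles had 0.21 to 0.36.

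Within a section the share of UMIs that a spot gave to the 33 genes was uneven. The median spot gave them 1.55%, 1.17% and 1.44% across sham, I/R and SBP. The 5th percentile of spots was 1.0%, 0.327% and 0.728%, while the 95th was 1.95%, 1.75% and 1.88%. The sections thus differed more in their lowest spots than in their highest. Spots were then split by Ankrd1, a stress-responsive gene of cardiomyocytes that the study uses to mark the infarct area. A spot was called Ankrd1-high when it lay above the 95th percentile of sham spots, 27.0 Ankrd1 UMIs per 10000. This called 112 of 2234 spots in sham, 479 of 2082 in I/R (23.0%) and 326 of 1960 in SBP (16.6%). In Ankrd1-high spots the median share of the 33 genes was 1.07%, 0.730% and 0.990% across the same sections, below that of the other spots in each section (1.57%, 1.36% and 1.5%). Spots of 1 section come from 1 mouse and are not replicates.

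**Figure D2:**
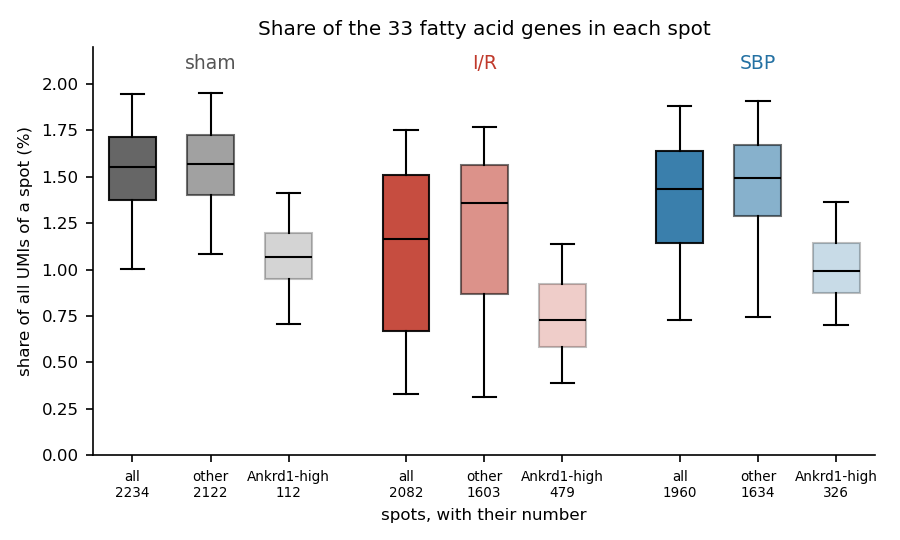
Share of a spot's UMIs held by the 33 fatty acid genes, in percent, for all spots, the other spots and the Ankrd1-high spots of each section, with the number of spots under each box. Boxes span the 25th to 75th percentile with the median as a line, and whiskers run from the 5th to the 95th percentile. Of the boxes of all spots that of I/R reaches lowest, and the median line of Ankrd1-high spots lies under that of the other spots in each section.

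Summed over the spots of I/R, the 33 genes were at 7626 CPM in the Ankrd1-high and 12599 CPM in the other spots, a log2 ratio of -0.72 (-0.74 to -0.71). In SBP they were at 10109 CPM in the Ankrd1-high and 14553 CPM in the other spots, a ratio of -0.53 (-0.54 to -0.51), and in the sham section, with few such spots, at 10655 CPM in the Ankrd1-high and 15243 CPM in the other spots, a ratio of -0.52 (-0.54 to -0.50). The Ankrd1-high spots of I/R were thus the lowest of the groups split by Ankrd1. Spots of I/R high in injury genes, described below, were lower still, at 6314 CPM. Between Ankrd1-high and other spots, all 33 genes were below 0 in I/R and in SBP, and 30 of 33 in sham. Their median was -0.30, -0.57 and -0.43 across sham, I/R and SBP, while the median gene had a ratio of 0.31, 0.23 and 0.20. A ratio at or below -0.5 was reached by 20 of 33 genes in I/R, against 9.13% of all genes and 4.80% of those with 1000 or more UMIs. It was reached by 11 of 33 in SBP, against 12.1% and 4.50%, and by 9 of 33 in sham, against 13.8% of all genes. Mitochondrial genes took 40.6% of UMIs in Ankrd1-high and 45.7% in other spots of I/R, and leaving them out gave summed ratios of -0.62, -0.85 and -0.60 across sham, I/R and SBP.

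By role, uptake and the carnitine shuttle were furthest apart in I/R, with summed ratios between Ankrd1-high and other spots of -0.92 (-0.94 to -0.90) and -0.84 (-0.89 to -0.79). Beta-oxidation enzymes were at -0.51 (-0.53 to -0.48), electron transfer at -0.62, unsaturated fatty acid enzymes at -0.56, malonyl-CoA control at -0.65 and ketone body use at -0.49. The regulators were closest to 0, at -0.21 (-0.34 to -0.086). Their sum is mostly Esrra, at 74.3 CPM in the I/R section beside 14.9 CPM for Ppargc1a, so it says little of Ppargc1a. Acsl1 had the lowest ratio in I/R. It was at 119.7 CPM in the Ankrd1-high and 275 CPM in the other spots of I/R, a ratio of -1.2 (-1.3 to -1.10), and had ratios of -0.70 in sham and -0.91 in SBP. Fabp3 was at 1496 CPM in the Ankrd1-high and 3310.5 CPM in the other spots of I/R, a ratio of -1.15 (-1.17 to -1.12), beside -0.93 in sham and -0.74 in SBP. Cpt1b was at 93.1 CPM in the Ankrd1-high and 182 CPM in the other spots of I/R, with ratios of -0.97 (-1.08 to -0.86) in I/R and -0.56 (-0.69 to -0.42) in SBP. In sham the ratio of Cpt1b was -0.32 (-0.49 to -0.15), and the intervals of sham and SBP lay above that of I/R. Acadm had a ratio of -0.84 (-0.93 to -0.76) in I/R against -0.35 (-0.45 to -0.25) in SBP. Etfdh was at -0.80 (-0.93 to -0.67) in I/R and -0.65 in SBP. At the other end stood Slc22a5 at -0.088 (-0.56 to 0.37), Cpt1a at -0.092 (-0.37 to 0.18), Esrra at -0.17 (-0.31 to -0.028), Hadhb at -0.34 (-0.39 to -0.29) and Acadl at -0.37 (-0.44 to -0.30), of which the first 2 hold 0. Acadvl and Acadl, level in CPM between the whole sections of I/R and sham, were lower in CPM in Ankrd1-high spots of each section. Acadvl was at -0.23, -0.44 and -0.31 and Acadl at -0.18, -0.37 and -0.28 across sham, I/R and SBP. The cardiomyocyte markers had -0.43, -0.39 and -0.33 in the same order. Per cardiomyocyte marker UMI the 2 genes were not level between whole sections, at 0.40 and 0.38 for I/R against sham.

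**Figure D3:**
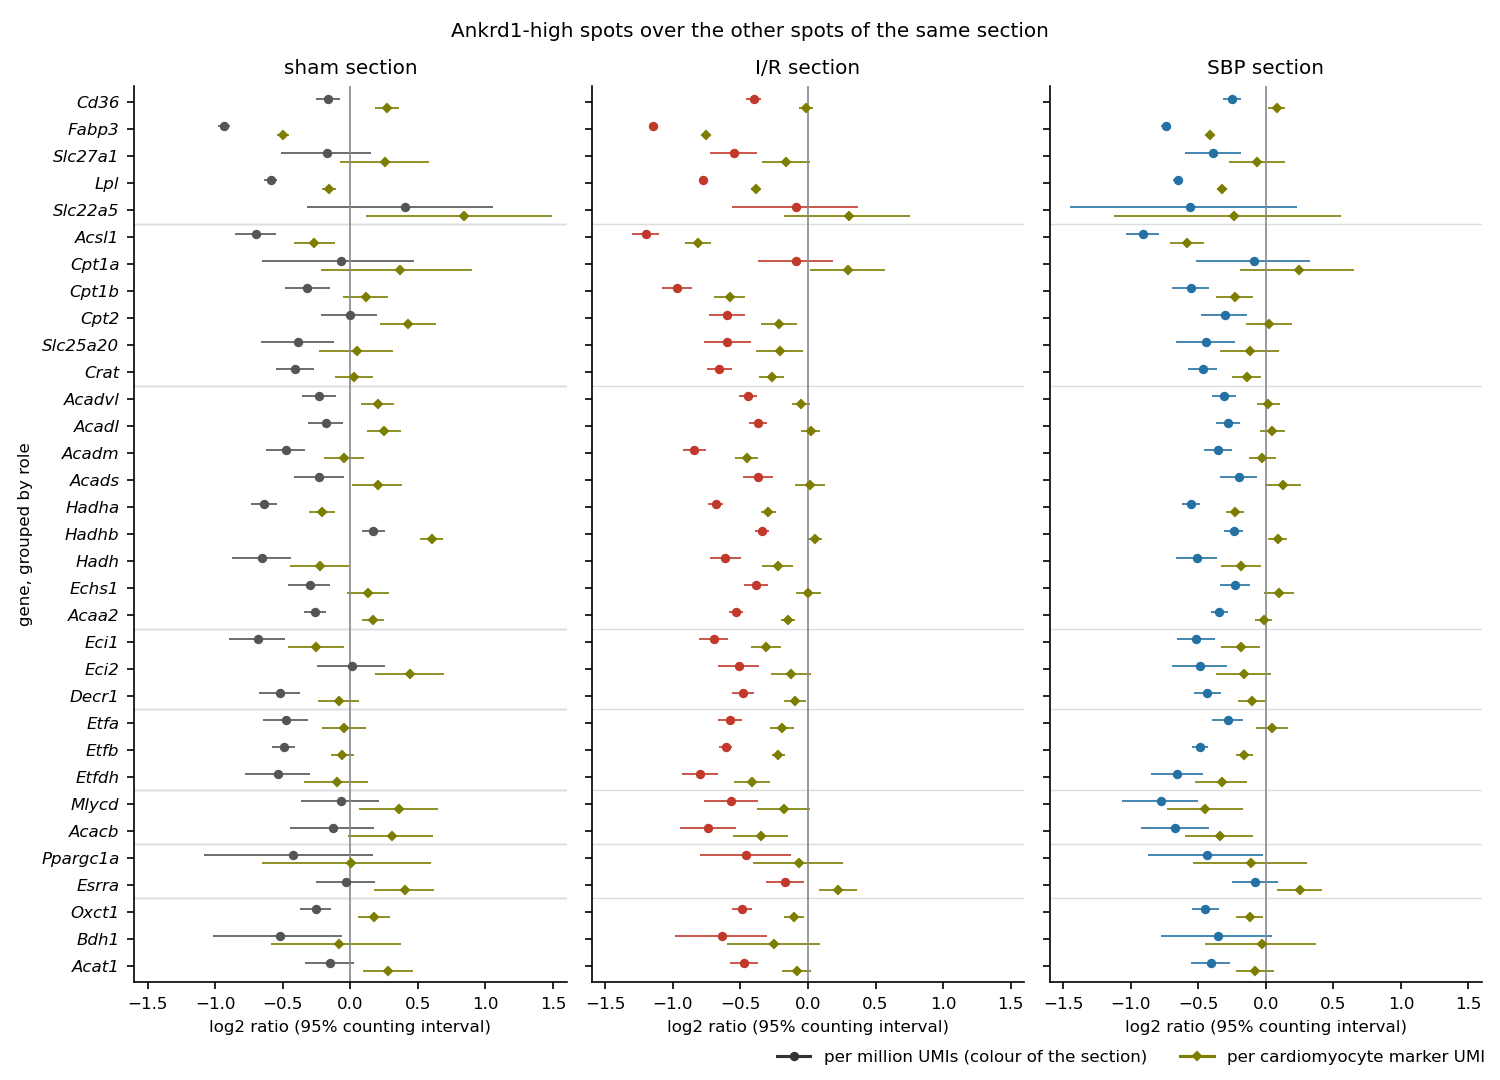
Log2 ratio between Ankrd1-high and other spots for each of the 33 genes in the sham, I/R and SBP sections, of CPM (circles) and per cardiomyocyte marker UMI (diamonds), with 95% counting intervals as bars. Circles lie left of 0 for 33 of 33 genes in I/R; Acsl1 (-1.2), Fabp3 (-1.15) and Cpt1b (-0.97) stay below -0.5 as diamonds too.

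Cardiomyocyte markers were also lower in Ankrd1-high spots, with summed log2 ratios of -0.43, -0.39 and -0.33 across sham, I/R and SBP, and the members of that list ranged in I/R from -0.78 for Myh6 to 0.14 for Actc1. Per cardiomyocyte marker UMI the sum of the 33 genes had a ratio of -0.34 (-0.35 to -0.32) in I/R. It was -0.20 (-0.21 to -0.18) in SBP and nearest to 0 in sham, at -0.084 (-0.10 to -0.063), where 21 of the 33 genes were above 0. So unlike the comparison of whole sections, a gap to the summed markers remained within I/R. It depends on the marker, since on the CPM scale the 33 genes were at -0.72, no lower than Myh6 at -0.78. Part of it was Fabp3. Without that gene the ratio per cardiomyocyte marker UMI was -0.21 (-0.23 to -0.20) in I/R and -0.13 (-0.15 to -0.11) in SBP. In sham it was then above 0, at 0.053 (0.030 to 0.076). On this scale uptake was at -0.53 in I/R and the shuttle at -0.46, while beta-oxidation enzymes were at -0.12. The regulators, a sum that is mostly Esrra, were at 0.17. Of single genes in I/R, 26 of 33 were below 0 and 3 were at or below -0.5, Acsl1 (-0.81), Fabp3 (-0.76) and Cpt1b (-0.58). Genes of the TCA cycle, which oxidise the acetyl-CoA, had a summed ratio of -0.010 (-0.027 to 0.0065) on the same scale and -0.40 on the CPM scale. Neutrophil markers had summed ratios of 1.24, 0.27 and 1.67 across sham, I/R and SBP, all on the CPM scale. Macrophage and monocyte markers had 0.63, 0.16 and 0.18, and fibroblast markers (6 genes) 0.99, 0.29 and -0.12, in the same order. The part of these cells in the result was not tested.

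The sum was lower in each higher step of Ankrd1, also under the threshold. Spots were placed in 5 bins at the 25th, 50th, 75th and 95th percentile of Ankrd1 in sham. From the lowest to the highest bin the sum went from 16259 to 10655 CPM in sham, from 15539 to 7626 CPM in I/R and from 16564 to 10109 CPM in SBP. On the CPM scale the I/R section was below the others in each bin, least in the lowest. The highest bin has no upper limit, so Ankrd1 need not be equal between sections there. Cardiomyocyte markers were also lowest in I/R in each bin. They were at 71005, 61930 and 68565 CPM across sham, I/R and SBP in the lowest bin. In the highest bin they were at 50711, 41527 and 51502 CPM. Ratios per cardiomyocyte marker UMI were not computed by bin, and the CPM order of the sections need not hold on that scale. In the bins up to the 75th percentile, I/R lay proportionally further below sham and SBP in the markers than in the sum. In the highest bin it lay proportionally further below them in the sum. SBP was above sham in the lowest bin and below it from the second bin on. For the beta-oxidation enzymes alone, the lowest bin was at 3975, 4092 and 4291 CPM across sham, I/R and SBP, so that both sections with ischemia were above sham there. In the highest bin the order was 3107 CPM in sham, 2994 CPM in SBP and 2388 CPM in I/R.

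**Figure D4:**
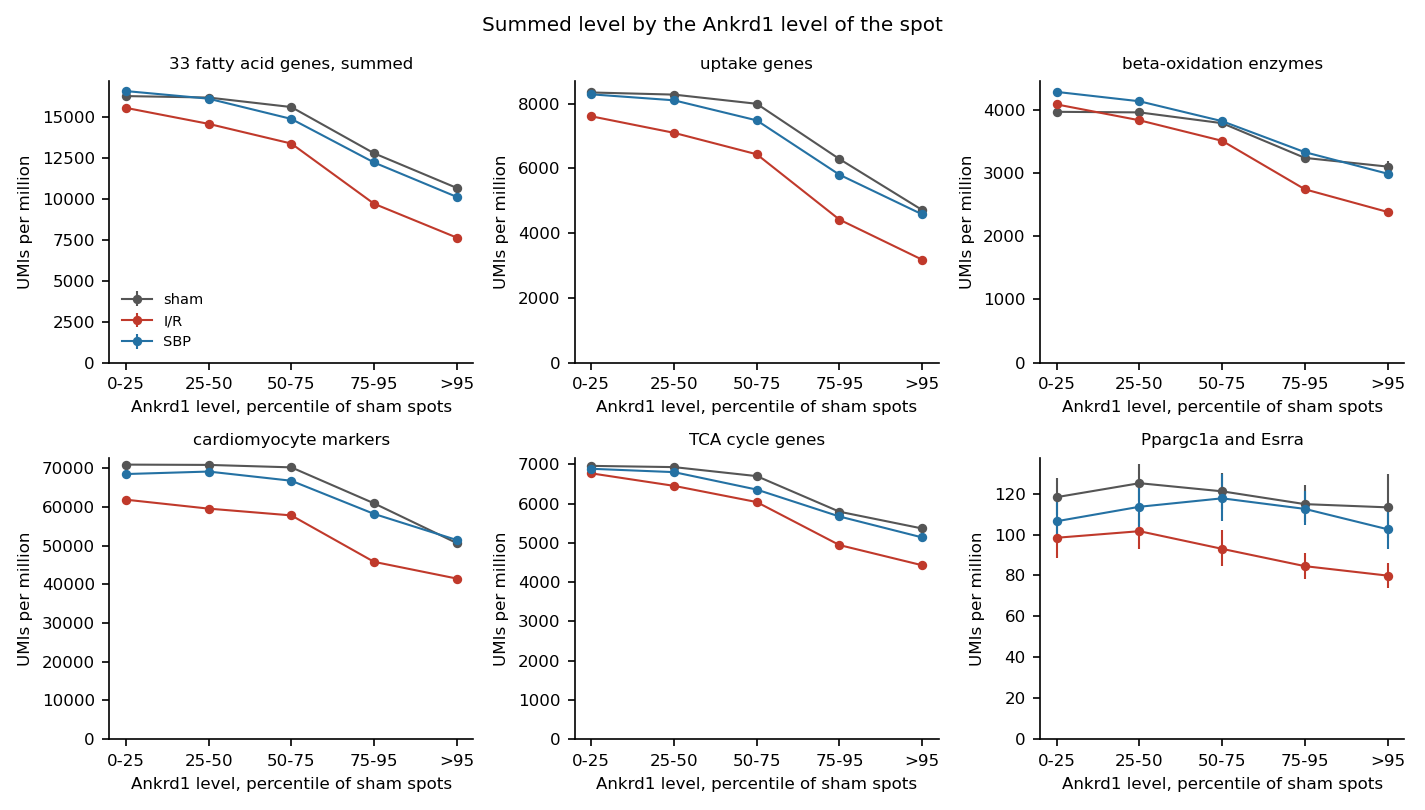
Summed level in CPM (points, with 95% counting intervals) in 5 bins of spots by Ankrd1, set at percentiles of the sham section, for the 33 fatty acid genes, 2 of their roles, cardiomyocyte markers, TCA cycle genes and the regulators; lines join the bins of a section. The sum of the 33 genes is lower from bin to bin in each section, down to 7626 CPM in I/R, and the regulators, a sum that is mostly Esrra, stay flatter.

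Ankrd1 is itself a muscle gene, so spots were also split by the sum of 10 injury genes (among them Timp1, Tgfbi and Ccn2) at the 95th percentile of sham. On the CPM scale the sum of the 33 genes was further from 0 than with Ankrd1, though in I/R it was not per cardiomyocyte marker UMI, at -0.30 (-0.31 to -0.28) beside -0.34. In I/R the 33 genes had a summed log2 ratio of CPM of -1.14 (-1.15 to -1.12) between injury-high and other spots, and 29 of 33 were at or below -0.5, against 10.5% of all genes, with neutrophil markers at a ratio of 4.38 and cardiomyocyte markers at -0.84. Spots high in neither numbered 2042, 1145 and 1424 across sham, I/R and SBP. There the sum was 15487, 14397 and 15217 CPM across sham, I/R and SBP, close together, with log2 ratios of -0.11 (-0.11 to -0.10) for I/R against sham and 0.080 (0.072 to 0.088) for SBP against I/R. The cardiomyocyte markers were further from 0 in these spots, at -0.18 (-0.18 to -0.17) and 0.12 (0.12 to 0.12). Relative to the markers the sum was thus not lower in I/R than in sham there. The median of the 33 genes in these spots was -0.065 for I/R against sham, beside -0.072 for all genes, with 19 genes below and 14 above 0. Spots that were injury-high and not Ankrd1-high numbered 80, 458 and 210, and had a sum of 9054, 5763 and 8639 CPM across sham, I/R and SBP. The ratios there were -0.65 (-0.69 to -0.62) for I/R against sham and 0.58 (0.56 to 0.61) for SBP against I/R, and the cardiomyocyte markers had -0.65 (-0.67 to -0.64) and 0.73 (0.72 to 0.74). In spots high in both (32, 358 and 146), the sum had ratios of -0.38 (-0.42 to -0.33) and 0.44 (0.42 to 0.47), further from 0 than the -0.21 (-0.23 to -0.19) and 0.33 (0.32 to 0.34) of the cardiomyocyte markers.

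Some genes differed between sections in the spots high in neither. Bdh1 was at 31.8, 19.5 and 19.8 CPM across sham, I/R and SBP, with ratios of -0.71 (-0.90 to -0.52) for I/R against sham and -0.68 (-0.88 to -0.49) for SBP against sham. Its difference from sham was thus present in spots under both thresholds. The distance of spots from the infarct was not used. Fabp3 was at 4421, 3877 and 3879.6 CPM across sham, I/R and SBP, equal in I/R and SBP (ratio 0.00097 (-0.015 to 0.017)), while SBP was above I/R in the other 3 spot groups. Its ratio there was 0.17 (0.11 to 0.23) in spots high in Ankrd1 only, 0.74 (0.68 to 0.80) in spots injury-high only and 0.65 (0.59 to 0.71) in spots high in both. Cardiomyocyte markers were higher in SBP than in I/R in each of the 4 spot groups, by 0.12 in spots high in neither. In I/R and SBP they were at 49967 and 54047 CPM in spots high in Ankrd1 only. They were at 27473 and 45520 CPM in spots injury-high only, and at 38273 and 48087 CPM in spots high in both. Lpl was higher in SBP than in I/R in each of the 4 spot groups, by 0.28 (0.26 to 0.29) in spots high in neither. Acadvl, Acadl and Hadhb were higher in I/R than in sham there, by 0.23 (0.19 to 0.28), 0.22 (0.17 to 0.27) and 0.19 (0.15 to 0.22). Slc27a1 was at 51.0, 62.8 and 78.2 CPM across sham, I/R and SBP, again lowest in sham. Within I/R, Ppargc1a was at 18.3, 15.4, 8.05 and 10.3 CPM in spots high in neither, in Ankrd1 only, in injury genes only and in both. Esrra was at 80.1, 74.8, 63.1 and 65.6 CPM in the same order.

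The forms of carnitine palmitoyltransferase 1 went opposite ways in the injury-high spots. Cpt1b was at 70.0 CPM in injury-high and 205 CPM in other spots of I/R, a log2 ratio of -1.55 (-1.66 to -1.43). Cpt1a was at 27.6 and 14.2 CPM, a ratio of 0.96 (0.72 to 1.2). On the CPM scale it was the only gene of the 33 that was higher in the injury-high spots of I/R. Per cardiomyocyte marker UMI the interval lay above 0 for 7 of the 33. For Cpt1a the other sections went the same way. In sham its ratio was 0.78 (0.26 to 1.25) and in SBP 0.28 (-0.14 to 0.68). Within I/R, Cpt1a was highest in spots that were injury-high only, at 38.7 CPM, followed by those high in both, at 19.0 CPM, beside 14.0 CPM in spots high in neither. Per Cpt1a UMI there were 2.53 Cpt1b UMIs in injury-high and 14.4 in other spots of I/R, and 6.11 and 13.0 in SBP. Macrophage and monocyte markers had a summed ratio of 1.96 in the same spots of I/R, and their part in the Cpt1a value was not tested.

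**Figure D5:**
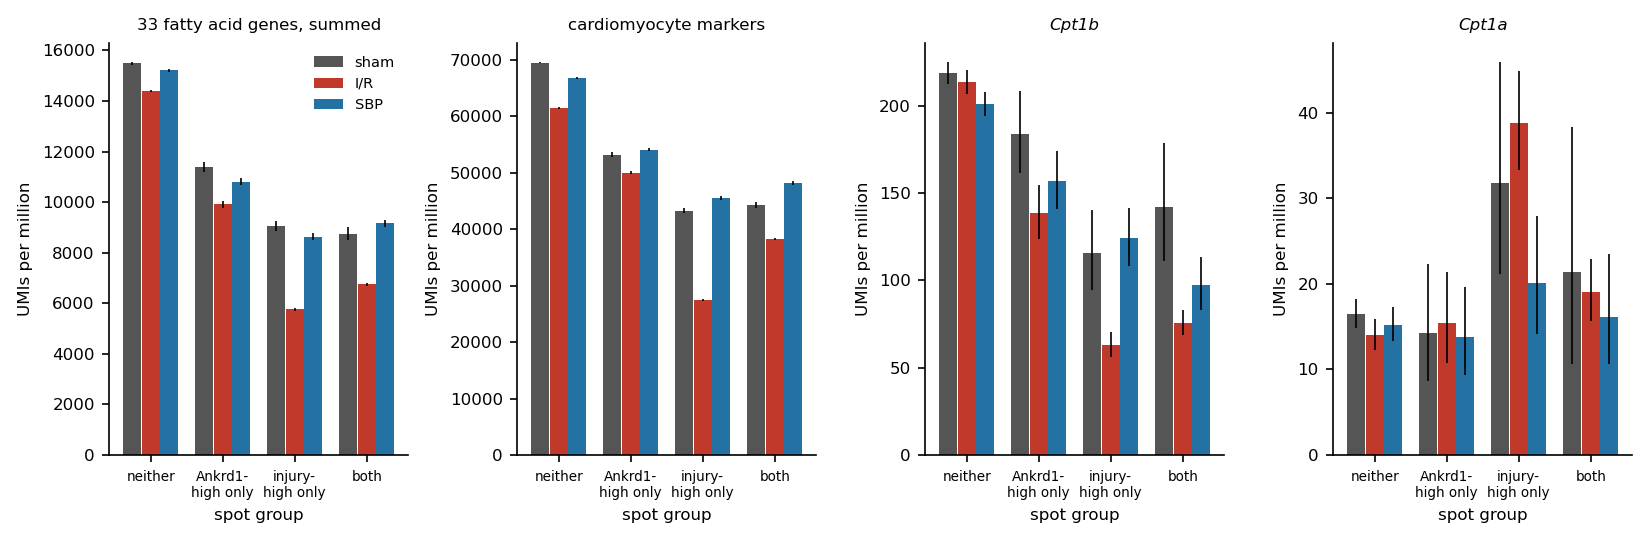
Level in CPM (bars from 0, with 95% counting intervals) of the 33 fatty acid genes as a sum, of the cardiomyocyte markers, of Cpt1b and of Cpt1a, in spots high in neither Ankrd1 nor injury genes, in 1 of them only, or in both, for the sham, I/R and SBP sections. The sections stand close together in spots high in neither for the sum of the 33 genes, and in spots that are injury-high only the I/R bar is lowest for Cpt1b and highest for Cpt1a, where its interval overlaps that of sham.

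Of 54 other genes of fatty acid handling, 52 had 20 or more UMIs, and they went both ways. For I/R against sham, 9 were at or below -0.5 and 8 at or above 0.5, with a median of -0.17 beside -0.33 for the 33 genes, against backgrounds of 6.68% and 29.9%. Past a log2 ratio of 1 with 100 or more UMIs in a section were Angptl4, Ucp2 and Ucp3. Angptl4, an inhibitor of lipoprotein lipase, was at 7.64 (6.60 to 8.80) CPM in the sham heart, 28.4 (26.6 to 30.4) after I/R and 11.1 (9.74 to 12.6) with SBP, highest in I/R, with ratios of 1.90 (1.67 to 2.13) for I/R against sham and -1.36 (-1.57 to -1.15) for SBP against I/R. Its order over the sections, sham below SBP below I/R, was the reverse of that of Lpl. Ucp2, a mitochondrial carrier, was at 26.6, 57.6 and 35.9 CPM across sham, I/R and SBP, a ratio of 1.12 (0.99 to 1.25). Ucp3, its muscle relative, was at 8.88 (7.75 to 10.1) CPM in the sham heart, 4.37 (3.65 to 5.18) after I/R and 2.50 (1.88 to 3.26) with SBP, highest in sham and lowest in SBP. Pdk4, the kinase that turns off pyruvate dehydrogenase when fatty acids are used, had the same order, at 41.1 (38.7 to 43.7) CPM in the sham heart, 21.5 (19.8 to 23.2) after I/R and 12.0 (10.6 to 13.6) with SBP, with ratios of -0.94 (-1.08 to -0.80) for I/R against sham and -0.84 (-1.05 to -0.63) for SBP against I/R. Thus SBP was below I/R in these genes, against the direction of 30 of the 33. Clock genes differed between the same sections, with Dbp at 74.2, 52.1 and 131 CPM and Arntl at 3.03, 3.97 and 0.693 CPM in sham, I/R and SBP, and the part of the hour of collection was not tested. Fabp4 and Gpihbp1, which serve fatty acid passage in capillary endothelium, differed little, Fabp4 at 546, 494 and 487 CPM across sham, I/R and SBP and Gpihbp1 at 78.3, 76.0 and 83.6 CPM across sham, I/R and SBP. Endothelial markers summed to 395, 439.7 and 399.8 CPM across sham, I/R and SBP.

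Next to the 33 genes, those of the TCA cycle and of glycolysis were read. The median ratio of the 18 TCA cycle genes was -0.21 for I/R against sham and 0.12 for SBP against I/R, the same directions as the 33 genes (-0.33 and 0.20). In Ankrd1-high spots of I/R the TCA median was -0.37 with 2 of 18 at or below -0.5, against -0.57 and 20 of 33 for the fatty acid genes and 9.13% of all genes. The 18 glycolytic genes had a median of -0.020 for I/R against sham, with 3 at or below -0.5 and 5 at or above 0.5. Of all genes, 6.68% and 29.9% were past these limits, so the 5 are near the background. Among them Eno1, the enolase found in most tissues, was at 13.9, 64.9 and 29.7 CPM across sham, I/R and SBP, and Eno3, the muscle enolase, at 884, 637 and 736 CPM across sham, I/R and SBP. The medians of these lists describe 1 section per condition and no test of a difference between lists was made.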

How the data were processed

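Visium gene expression was measured in 1 heart section each of the sham, I/R and SBP conditions, grouped by the labels. The authors deposited a matrix of UMI counts per gene and spot for each section, made with Space Ranger 1.3.0 and the mm10 genome per the submitters' processing notes. The study's methods name another version and a human reference, while the gene identifiers in the files are mouse. Values were not normalised before deposit.

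From these counts, spots were kept if they held 200 or more genes (3, 1 and 2 spots of sham, I/R and SBP did not), UMIs were summed over spots and divided by the section's UMIs, and log2 ratios were formed without a pseudocount. Intervals (95%) were exact Poisson for levels and exact conditional binomial for ratios. No test across sections was possible. Alternatives were other denominators (UMIs without mitochondrial genes, cardiomyocyte marker UMIs, TMM and median-of-ratios factors), other spot filters, weights and thresholds, thinning to 6500 UMIs and leaving out Fabp3. Every member is named, with intervals for the 5 lowest and 5 highest ratios of each main comparison and the 5 highest levels in sham. For the 2 regulators intervals are given between whole sections, and no ratio of Ppargc1a between Ankrd1-high and other spots is given. Of the other fatty acid handling genes, those past a log2 ratio of 1 with 100 or more UMIs are named, with Pdk4, Ppara, Fabp4 and Gpihbp1; Eno1 and Eno3, Dbp and Arntl, and Myh6 and Actc1 were chosen after their values were seen. The members and lists were chosen with earlier results of these data known. Gene positions are from GENCODE M21 (GRCm38), which held 32158 of the gene identifiers and lacked 127. Aldoa and Hsd17b8 could not be matched to 1 gene, and Slc27a6 had 0 UMIs. Calculations were run in Python 3.11.15 with pandas 2.3.3, numpy 2.4.6 and scipy 1.17.1, figures were drawn with matplotlib 3.10.9, and the code was tested on simulated data.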

Additional observations from a re-analysis of the deposited data

Results flagged for a closer look

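Hadhb, the beta subunit of the trifunctional protein, had opposite directions on the CPM scale between Ankrd1-high and other spots. The log2 ratio was 0.17 in the sham section, where Ankrd1-high spots held the higher level. It was -0.34 in the I/R section and -0.24 in the SBP section, where they held the lower level. Cardiomyocyte markers had summed ratios of -0.43, -0.39 and -0.33 across sham, I/R and SBP. In I/R and SBP Hadhb was thus no further below 0 than the markers, so the reversal is stated for CPM only. Each value comes from 1 section, and the difference between sections was not tested.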

How the results depend on the processing

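No paired analysis was possible because sham, I/R and SBP are single sections. The summed log2 ratio of the 33 genes for I/R over sham was -0.52 without mitochondrial genes, -0.0051 per cardiomyocyte marker UMI, -0.62 with TMM factors, -0.64 with median-of-ratios factors, -0.47 with equal weight for each spot and -0.35 without Fabp3. In the first 5 of these settings, SBP over I/R was 0.34, -0.0024, 0.44, 0.45 and 0.33, and SBP over sham -0.18, -0.0075, -0.19, -0.19 and -0.15, with -0.054 for SBP over sham without Fabp3. The number of genes at or below -0.5 for I/R over sham was 12, 1, 18, 20 and 9 in the same order, and the number at or above 0.5 for SBP over I/R was 1 without mitochondrial genes, 7 with either set of factors and 1 with equal weights. The shares of all genes given above are for the CPM scale and do not serve as background to these counts. Between Ankrd1-high and other spots, the summed ratio without mitochondrial genes was -0.62, -0.85 and -0.60 across sham, I/R and SBP. Per cardiomyocyte marker UMI it was -0.084, -0.34 and -0.20. Without Fabp3 it was -0.38, -0.60 and -0.46 on the CPM scale and 0.053, -0.21 and -0.13 per cardiomyocyte marker UMI. Grouping spots by injury genes gave -0.77, -1.14 and -0.72. The 99th percentile of Ankrd1 gave -0.45 in sham and -0.69 in I/R, the 90th percentile -0.75 in I/R, and thinning to 6500 UMIs -0.74 in I/R. Of genes at or below -0.5, I/R held 3 per cardiomyocyte marker UMI, and SBP held 18 without mitochondrial genes, 1 per cardiomyocyte marker UMI and 26 by injury genes. Leaving out no spots and keeping spots with 1000 or more UMIs moved none of the summed ratios or counts beyond counting error. Leaving out spots with adipocyte markers, an alternative chosen after seeing the data, was run for whole sections, where it did not move the summed ratios of SBP over I/R and SBP over sham beyond counting error. The cause was not tested. With 1 section per condition, depth limits single genes such as Slc22a5 and Cpt1a.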
